A study of Mus musculus with 10 samples.

Results

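The 9 genes of the mouse Hoxc cluster (Hoxc4, Hoxc5, Hoxc6, Hoxc8, Hoxc9, Hoxc10, Hoxc11, Hoxc12 and Hoxc13) were followed through 6 maps of the repressive histone mark H3K27me3, among 21938 protein-coding genes in all. They were taken by name, and each was read along its gene body and at its promoter, which reached from 5 kb before to 100 bp past every annotated start of transcription. The maps came from fetal liver of E14.5 mouse embryos, in which LSK cells that were CD48-CD150+ had been sorted as long-term hematopoietic stem cells (LT-HSCs). There were 3 wild-type (WT) libraries and 3 libraries from IκBα knockout (KO) embryos, which lack the NF-κB inhibitor encoded by Nfkbia through the targeted Nfkbia tm1Bal allele. Embryos of both genotypes came from matings of heterozygous parents, which could also carry a Gfi1:tomato reporter, and the labels of these libraries do not say whether they did. Another 4 samples of the series mapped IκBα itself and were not analysed here.

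HOX proteins are transcription factors that tell cells where they lie along the body axis, and the genes stand on the chromosome in the order in which they act, with Hoxc13 at the tail end and Hoxc4 towards the head. H3K27me3 is laid down by the Polycomb repressive complex PRC2 and is known to lie over Hox clusters in broad blocks where the genes are silent. Blood stem cells use mostly genes of the Hoxa and Hoxb clusters, whereas Hoxc genes are best known from the spinal cord, skeleton, limbs and skin appendages. The question here was how much of the Hoxc cluster carried the mark in LT-HSCs, where the mark broke off, and whether WT and KO differed.

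A peak is a stretch of enriched fragment coverage that was called in each library on its own. The libraries held between 1047 and 6013 peaks over 1.90 to 27.8 Mb, and replicate 3 of both genotypes, sequenced with 50 bp reads and, by the study's read totals, less deeply, held the fewest (WT 1047, KO 2325) against 4160 to 6013 in the 75 bp libraries of replicates 1 and 2. In WT replicate 3 the peaks were also narrow, with a median width of 1727 bp against 3475 to 3624 bp in the 75 bp libraries. Every count below therefore moves with the library, and values are given library by library, with those of the 75 bp libraries set apart. Promoters of 12 blood stem and progenitor markers, among them Kit, Runx1 and Gata2, carried no peak in any library, nor did 3 erythroid and 3 hepatoblast markers, and of 3 endothelial markers only Kdr did, in 1 library (WT replicate 2). A repressive mark does not show expression, so this checks the mark at these genes and not the purity of the sort. Nfkbia itself had no peak at its promoter or body in any of the 6 libraries, so these peak lists do not check the knockout.

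The mark lay over all 9 Hoxc promoters in the 75 bp libraries. Replicates 1 and 2 had 9 of 9 promoters under a peak in either genotype, beside 10.6% and 12.9% of all coding promoters for WT, and 12.9% and 12.2% for KO. Called in all 4 of these libraries were 9 of 9 members beside 8.53% of all genes, and called in all 6 were 2 of 9 beside 2.65%. In KO replicate 3 it was 7 of 9, without Hoxc11 and Hoxc12, beside 8.06% of all promoters. In WT replicate 3 it was 2 of 9, Hoxc10 and Hoxc5, beside 3.46%. The mean was 6.67 ± 4.04 (SD, n = 3) promoters in WT and 8.33 ± 1.155 (SD, n = 3) in KO. The difference of 1.67 promoters was smaller than the spread between WT libraries (two-sided exact permutation test over 20 assignments, p = 1), and it came from replicate 3 alone, where it was 5, since it was 0 among the 75 bp libraries. A test of 3 against 3 libraries cannot give a p below 0.1. The promoters are not independent, because wide peaks ran over several genes. The 9 called promoters rested on 12 peaks in WT replicate 1, 5 in WT replicate 2, 7 in KO replicate 1 and 14 in KO replicate 2. Both calls of WT replicate 3 rested on 1 peak.

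**Figure D1:**
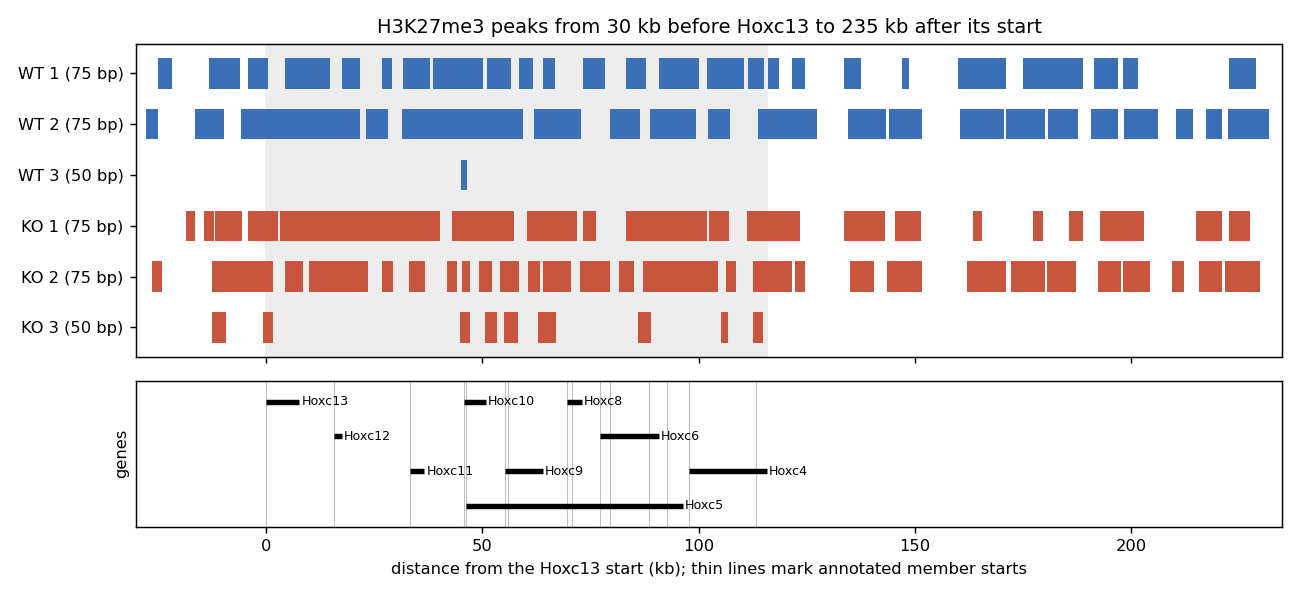
H3K27me3 peaks (bars) in each library, WT in blue and KO in red, against the distance from the Hoxc13 start in kb, with the cluster shaded, gene bodies drawn below and thin lines at annotated starts. The 75 bp libraries are filled over most of the 115.75 kb cluster and on past Hoxc4, KO replicate 3 holds 8 short peaks and WT replicate 3 holds 1.

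The cluster spans 115.75 kb on chromosome 15 (GRCm38, chr15:102921103-103036852), with all 9 genes on the plus strand. Given in the order of replicates 1, 2 and 3 here and below, peaks covered 66.9%, 78.3% and 1.26% of it in WT against 83.5%, 69.2% and 17.9% in KO. The 75 bp libraries were high in both genotypes and overlapped, and both 50 bp libraries were low. The means were 48.8 ± 41.6% in WT against 56.9 ± 34.5% in KO (SD, n = 3 each), a difference of 8.02 percentage points that did not exceed the spread (exact permutation test, p = 0.6). Within the same-numbered pairs KO minus WT was 16.6, -9.18 and 16.7 points. Without WT replicate 3 the difference turned to -15.8 points, and without KO replicate 1 to -5.28 points, so its direction rests on single libraries. As a share of all peak signal in a library, the cluster varied less among the 75 bp libraries. It held 0.439%, 0.377% and 0.0818% of the summed signal in WT and 0.429%, 0.379% and 0.232% in KO. The same-numbered 75 bp libraries differed by -0.034 and 0.0062 on the log2 scale. With only the 1047 strongest peaks of each library they lay further apart, at a log2 percentage of -0.62 and -0.44 in WT against -0.27 and -0.89 in KO. The log2 difference between genotypes was 0.49 over all libraries (exact permutation test, p = 0.8) and -0.014 over the 75 bp libraries.

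The mark was not unusually deep where it was present. Mean fragment coverage inside the peaks of the cluster, divided by the mean over all peaks of the library, was 1.03, 1.16 and 1.06 in WT against 1.03, 1.09 and 0.852 in KO. KO replicate 3 was the only library below 1. The log2 difference of -0.14 did not pass the exact permutation test (p = 0.4). Within same-numbered pairs it was -0.0004, -0.091 and -0.32, all of one sign. The exact sign-flip test over these 3 pairs gave p = 0.25, the smallest it allows. In the 75 bp libraries some peaks of the cluster were long. KO replicate 1 held a peak of 36812 bp with a total signal of 166604, from within Hoxc13 to past Hoxc11, which ranked 2 among its 4904 peaks. WT replicate 2 had peaks of 27567 and 28113 bp that ranked 7 and 10 among 6013. In WT replicate 1 and KO replicate 2 the cluster was cut into 14 and 16 peaks, the best of which ranked 145 and 32. The single peak of WT replicate 3 ranked 600 of 1047, and the best of the 8 peaks of KO replicate 3 ranked 927 of 2325.

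**Figure D2:**
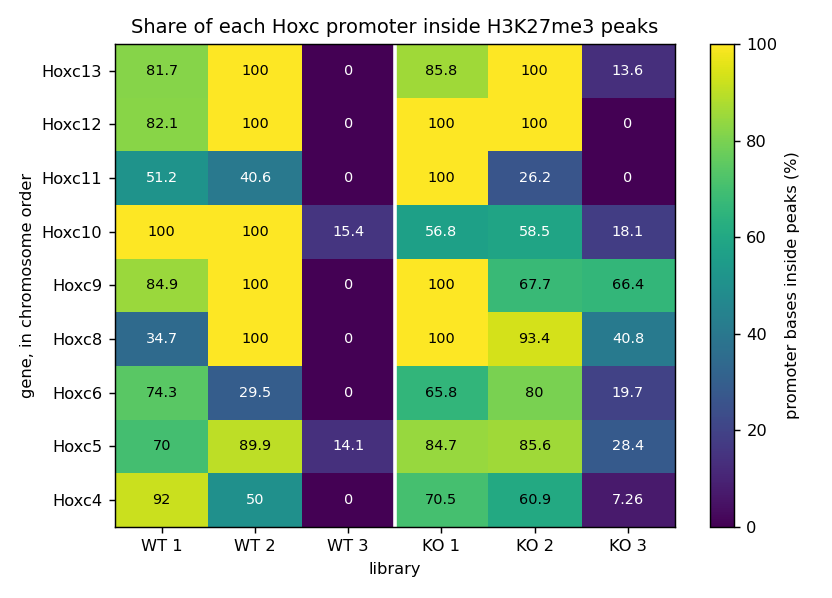
Percentage of promoter bases inside peaks for each of the 9 genes (rows, in chromosome order) in each library (columns), with the value printed in each cell. Hoxc10 is the only row in which both 75 bp KO libraries (56.8 and 58.5%) lie below both 75 bp WT libraries (100% each), 1 of 9 beside 12.8% of all genes called in these 4 libraries.

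Hoxc13, needed for hair and nail keratin genes, stands at the tail end of the cluster (chr15:102921103-102928814). Its promoter was covered to 81.7%, 100% and 0% in WT against 85.8%, 100% and 13.6% in KO, so the genotypes overlapped. Its start lay inside a peak in 5 of 6 libraries, all but WT replicate 3. In KO replicate 3 it carried the only peak of the cluster upstream of Hoxc10, with a maximum signal of 10, which is the median of all peaks of that library. Hoxc12, a posterior patterning gene (chr15:102936757-102938609), was covered at its promoter to 82.1%, 100% and 0% in WT against 100%, 100% and 0% in KO. In WT replicate 1 its promoter peak stopped before the gene. The gap of 2781 bp that followed took in the start and the whole body of 1853 bp, while the other 75 bp libraries covered the body to 100%. A marked promoter beside a body without a peak was otherwise seen only at Hoxc8, in WT replicate 1 and KO replicate 3. Hoxc11, which acts in hindlimb and kidney development (chr15:102954427-102957708), showed the reverse. Its body was covered to 100% in all 4 libraries of 75 bp and to 0% in both 50 bp libraries. Its promoter was covered to 51.2%, 40.6% and 0% in WT against 100%, 26.2% and 0% in KO, the widest range among the 75 bp libraries of any member (73.8 points), and wide within KO itself. A stretch upstream of Hoxc11 without a peak in either 75 bp WT library (chr15:102950287-102952455, 2169 bp) lay inside its promoter window. KO replicate 2 also lacked a peak there in all but 140 bp (chr15:102950287-102950426). Among the 75 bp libraries only KO replicate 1 covered the whole stretch.

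Hoxc10, a gene of the lumbar spinal cord and hindlimb (chr15:102966796-102971893), held the only stretch of the cluster inside a peak in all 6 libraries. That stretch was 1180 bp long (chr15:102966388-102967567) and ran over the Hoxc10 start into the gene. It is 1.02% of the cluster. The peak of WT replicate 3 there measured 1458 bp, with a total signal of 4095 and a maximum of 5 against a library median of 6. The maxima at the Hoxc10 promoter were 11, 13 and 5 in WT against 14, 11 and 14 in KO. KO replicate 3, although shallow, was as high here as KO replicate 1. Upstream of this core the genotypes parted in the 75 bp libraries. The promoter was covered to 100%, 100% and 15.4% in WT against 56.8%, 58.5% and 18.1% in KO. Both 75 bp KO libraries lacked a stretch of 1666 bp (chr15:102961209-102962874) that both WT libraries covered. Across all members, 1 of 9 had both 75 bp KO libraries below both WT libraries, beside 12.8% of the 1871 genes called in all 4, and 0 of 9 had both above, beside 17.3%. In replicate 3 KO was the higher of the pair, and 2 against 2 libraries cannot reach a p below 0.333.

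The only part of the cluster without a peak in any library lay in an intron of Hoxc4 (684 bp, chr15:103031716-103032399), within the window of its principal promoter. The middle of this gap is printed, since it shows what the uncovered sequence looks like (5′ to 3′, plus strand of GRCm38, chr15:103031982-103032133). Capitals would mark CpG dinucleotides, since PRC2 is known to gather at CpG islands, and there are 0 in its 152 bases.
Hoxc4 intron gap: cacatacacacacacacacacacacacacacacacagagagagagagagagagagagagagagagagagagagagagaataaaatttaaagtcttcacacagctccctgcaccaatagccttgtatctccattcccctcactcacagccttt
The stretch opens with a run of CA and GA repeats. Of the whole gap, 60.8% of the bases are marked as repeats in the reference, against 15.9% in the cluster and 2.71% in the stretch shared by all 6 libraries. Multi-mapped reads were removed by the authors, and the part of mappability in this gap was not tested.

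Hoxc9, which sets thoracic motor neuron identity (chr15:102976439-102985099), was covered at its promoter to 84.9%, 100% and 0% in WT against 100%, 67.7% and 66.4% in KO. This was the highest value of any member in KO replicate 3, level with KO replicate 2. Its body was covered to 51.3%, 71.7% and 0% in WT against 63.4%, 69.4% and 47.7% in KO. Hoxc8, a gene of the brachial spinal cord and ribs (chr15:102990607-102994111), was covered at its promoter to 34.7%, 100% and 0% in WT against 100%, 93.4% and 40.8% in KO. WT replicate 1 stood below the other 75 bp libraries. It had a gap of 6669 bp from 66.7 kb to 73.4 kb past the Hoxc13 start, its longest, which took in both Hoxc8 starts and the whole gene. Yet the short peak just upstream held a maximum signal of 17, the highest of any peak in the cluster and 1.89 times the median of its library.

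Hoxc6, with roles in ribs, mammary gland and the brachial spinal cord (chr15:102998257-103011881), has 3 annotated starts. Its promoter windows were covered to 74.3%, 29.5% and 0% in WT against 65.8%, 80.0% and 19.7% in KO. The start of its principal transcript, at position 103009573, lay inside a peak in all 3 KO libraries and in no WT library. In KO the peak over it was 18870, 17407 and 2933 bp wide, with maxima of 11, 13 and 6. In WT replicate 1 the nearest peak ended 703 bp upstream, and in WT replicate 2 the nearest began 276 bp downstream, so the 978 bp without a peak in either 75 bp WT library framed the start. This start was singled out after its values were seen. The peak over it in KO replicate 3 ranked 1468 of 2325 and falls away when the 1047 strongest peaks of each library are kept, so the pattern of all 3 KO libraries is lost there. Of 2854 coding genes whose principal start lay inside a peak in any library, 32 (1.12%) showed the same pattern and 2 (0.0701%) the opposite one, so it was 1 of 9 members beside a background of 1.12%. An exact permutation test of 3 against 3 cannot go below p = 0.1 for it.

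The number of members with the start inside a peak was higher in the KO libraries but did not pass the test. The principal start of 6, 7 and 1 of 9 genes lay inside a peak in WT and of 9, 9 and 5 in KO. The background in the same order was 8.05%, 9.86% and 2.32% of all coding genes in WT and 10.1%, 9.32% and 6.46% in KO. Both 75 bp KO libraries were above both WT libraries, and KO was higher in 3 of 3 same-numbered pairs. The means were 4.67 ± 3.21 and 7.67 ± 2.31 (SD, n = 3 each), and the difference of 3 starts gave p = 0.3 in the exact permutation test. This count was added after the data were seen. It depended on how many peaks were kept. With only the 1047 strongest peaks of each library, the counts were 4, 7 and 1 in WT against 9, 6 and 0 in KO. Without WT replicate 3 the difference was 1.17 starts. Over all 15 annotated starts of the 9 genes it was 10, 11 and 2 in WT against 13, 14 and 7 in KO.

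Hoxc5, a gene of the cervical and upper thoracic region, has an upstream start at position 102967443, just inside Hoxc10, beside its principal start at 103013815. Its annotated body (chr15:102967443-103017429) therefore runs under Hoxc9, Hoxc8 and Hoxc6, and reads cannot be given to one of them. The promoter windows were covered to 70.0%, 89.9% and 14.1% in WT against 84.7%, 85.6% and 28.4% in KO. The call in WT replicate 3 came through the upstream start, over the Hoxc10 peak. With principal transcripts only, the members called were 9, 8 and 1 in WT (the 1 being Hoxc10), beside 9.37%, 11.4% and 2.9% of all genes. In KO they were 9, 9 and 7, beside 2523 of 21938 genes in replicate 1 and 10.8% and 7.11% in replicates 2 and 3. Hoxc4, known from vertebrae and activated lymphocytes (chr15:103018934-103036852), has its principal start near its 3′ end at position 103034395. Its windows were covered to 92.0%, 50.0% and 0% in WT against 70.5%, 60.9% and 7.26% in KO. WT replicate 2 lost the call at the principal promoter, where it had a gap of 6393 bp. KO replicate 3 called it with the lowest covered share among its 7 promoters.

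The 250 bases before the RefSeq start of Hoxc4 (RefSeq promoter table, GRCm38, chr15:103034145-103034394, plus strand) are shown because the libraries disagreed there. The table held a promoter for 1 of the 9 members. All 250 bases lay inside a peak in WT replicate 1 and all 3 KO libraries, and none did in WT replicates 2 and 3. Capitals mark CpG, of which there are 8.
Hoxc4 promoter: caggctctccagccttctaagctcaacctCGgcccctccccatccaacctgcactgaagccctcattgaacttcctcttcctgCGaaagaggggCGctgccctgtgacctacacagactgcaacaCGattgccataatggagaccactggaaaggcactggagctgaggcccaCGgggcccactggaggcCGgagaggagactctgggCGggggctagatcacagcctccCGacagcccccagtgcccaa

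**Figure D3:**
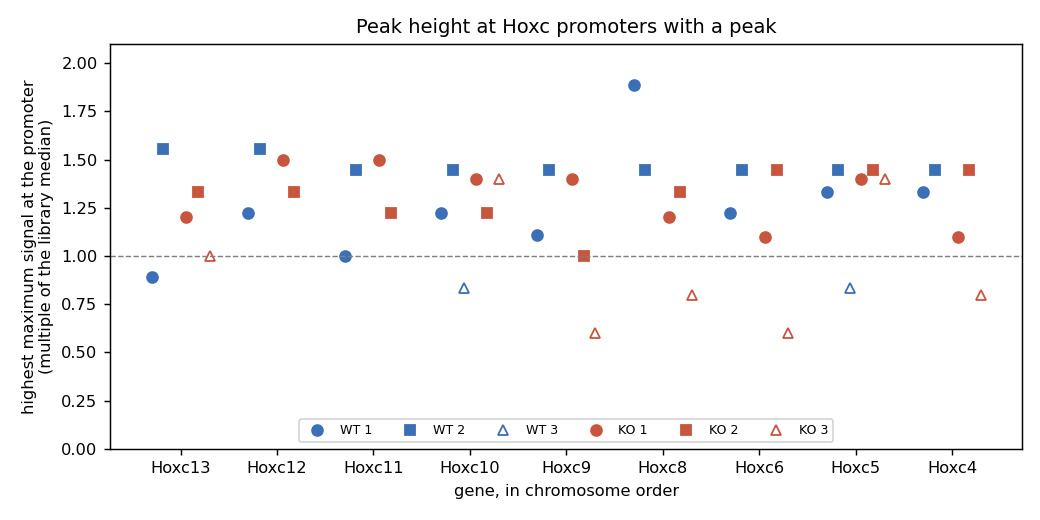
Highest maximum signal of the peaks at each promoter (y axis, as a multiple of the median over all peaks of the same library, dashed line at 1), for the 9 genes in chromosome order. Filled symbols are 75 bp libraries, open triangles are replicate 3, WT is blue and KO is red. WT replicate 1 at Hoxc8 is highest at 1.89 and KO replicate 3 is lowest at 0.6 (Hoxc9 and Hoxc6).

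Peak height varied from gene to gene, among the 75 bp libraries least in WT replicate 2, where the 9 promoters rested on 5 peaks. In the 75 bp libraries the highest maximum at a promoter ran from 8 to 17 in WT replicate 1, from 13 to 14 in WT replicate 2, from 11 to 15 in KO replicate 1 and from 9 to 13 in KO replicate 2. As multiples of the library median these were 0.889 to 1.89, 1.44 to 1.56, 1.1 to 1.5 and 1 to 1.44. KO replicate 3 ran from 0.6 at Hoxc9 and Hoxc6 to 1.4 at Hoxc10 and Hoxc5, which share their peak, and so had the widest range apart from WT replicate 1.

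No Hoxc promoter passed the genotype test. Promoter signal on the log2 scale was compared with limma over 2009 coding genes with a peak in at least 2 libraries of each genotype. Each library was centred on its median over the 581 genes called in all 6. An uncalled library enters as missing, so WT replicate 3 counts only at Hoxc10 and Hoxc5. After Benjamini-Hochberg adjustment 0 of 2009 genes passed (0%), and 65 (3.24%) had an unadjusted p under 0.05, 2.34% higher and 0.896% lower in KO. None of the members was among them. Of the 9 members, 4 were higher and 5 lower in KO, with a median log2 difference of -0.031 beside 0.0083 for all genes. The values ran from -1.02 ± 0.75 (SE) at Hoxc4 to 0.18 ± 0.52 at Hoxc8. The Hoxc4 value rests on KO replicate 3, since it was -0.27 ± 0.42 without that library. Hoxc10 was at -0.81 ± 0.42 (SE, n = 3 and 3, limma unadjusted p = 0.0964, adjusted p = 0.978). With the 75 bp libraries only it was at -0.91 ± 0.32 (limma unadjusted p = 0.0402, adjusted p = 0.912), beside 2.24% of genes lower at that unadjusted level. With same-numbered libraries as blocks it was at -0.81 ± 0.31 (limma unadjusted p = 0.0458, adjusted p = 0.891), beside 2.14% lower. Without WT replicate 3 it was at -1.16 ± 0.39 (limma unadjusted p = 0.0228, adjusted p = 0.963), beside 1.28% lower. Centred on total peak signal it was at -1.19 ± 0.49 (limma unadjusted p = 0.0393, adjusted p = 0.999), beside 12 of 2009 genes lower. It shrank to -0.57 ± 0.49 without WT replicate 1, to -0.56 ± 0.46 without KO replicate 3, to -0.21 ± 0.20 for promoters of 1 kb either side and to -0.075 ± 0.163 in mean coverage. In height rather than summed signal it turned to 0.20 ± 0.23. None of the 9 had all 3 KO libraries above or below all 3 WT libraries in covered share, beside 2.77% above and 0.115% below among 3469 genes with a peak in any library.

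The gaps in the mark differed in number and place between libraries. The uncovered part was 33.1% in 14 gaps in WT replicate 1, 21.7% in 7 gaps in WT replicate 2, 16.5% in 7 gaps in KO replicate 1 and 30.8% in 15 gaps in KO replicate 2. The longest measured 6669, 6656, 6783 and 5089 bp. In KO replicate 3 there were 8 gaps up to 43366 bp and in WT replicate 3 there were 2, the longer of 69285 bp. Of the cluster, 38.0% was covered in all 4 libraries of 75 bp, 31.5% in 3, 21.4% in 2, 8.48% in 1 and 0.591% in none. The covered-by-all part fell into 17 stretches. The longest, 8555 bp (chr15:103011932-103020486), ran over the principal Hoxc5 start and the upstream Hoxc4 start and held Mir615. Both 75 bp WT libraries, and neither 75 bp KO library, had a gap at 6 places totalling 4756 bp (4.11% of the cluster). The reverse held at 2 places totalling 2569 bp (2.22%), the longer of which is the one before Hoxc10. Gaps shared by both 75 bp WT libraries took up 7.94% of the cluster, and those shared by both 75 bp KO libraries 8.05%. The share expected from the uncovered parts of the single libraries was not computed, so these counts are not read as a genotype difference.

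Among annotated starts, those upstream in Hoxc6 were least often inside a peak. KO replicate 1 and WT replicate 2 had their longest gaps there, at 76.3 to 83.1 kb and 72.8 to 79.4 kb past the Hoxc13 start. The Hoxc6 start at position 103000529 lay inside a peak in 1 of 6 libraries, the fewest of the 15 starts. The one at 102998257 and the second start of Hoxc8 lay inside a peak in 2. The Hoxc10 start and the upstream Hoxc5 start lay inside one in 6 of 6.

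The sparse peaks of the 50 bp libraries were compared base by base with those of the others. Of the 1458 bp covered in WT replicate 3, 100% was covered in WT replicates 1 and 2 and KO replicate 1, and 80.9% in KO replicate 2. Of the 20755 bp covered in KO replicate 3, 95.0% was covered in KO replicate 1, 83.8% in WT replicate 2, 78.6% in KO replicate 2 and 70.1% in WT replicate 1. Of the whole cluster the same libraries covered 83.5%, 78.3%, 69.2% and 66.9%, each somewhat below the share given for it. This excess was not tested. Of the 8 peaks of KO replicate 3, 5 held an annotated member start (Hoxc13, Hoxc10 with Hoxc5, Hoxc9, Hoxc6 and Hoxc4). There 1 more ended within 2 kb of a start, and 7 of the 15 starts were covered. No peak of KO replicate 3 lay between Hoxc13 and Hoxc10, where Hoxc12 and Hoxc11 stand.

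Bases covered in 3 or more of the 75 bp libraries were richer in CpG than those covered in 1 or 2. CpG dinucleotides numbered 16.7 per kb where 1 of the 75 bp libraries had a peak, 15.7 where 2 did, 22.1 where 3 did and 25.5 where all 4 did, beside 21.5 per kb over the cluster. In the bases covered in 5 of all 6 libraries there were 37.4 per kb, and in the stretch covered in 6 there were 54.2 per kb. Among the 75 bp libraries the contrast was widest in KO replicate 2 (25.1 per kb covered, 13.2 uncovered) and narrowest in WT replicate 2 (21.5 and 21.2). In KO replicate 3 it was 30.5 against 19.5, and in WT replicate 3, with 1 peak, 46.6 against 21.1. Across 115 bins of 1 kb, the CpG count and the mean number of 75 bp libraries covering had a Pearson r of 0.20, which is weak, and neighbouring bins are not independent. With the repeat share r was -0.37. Library by library, r with the CpG count was 0.025 and 0.023 in the 75 bp WT libraries and 0.12 and 0.30 in the 75 bp KO libraries. In the WT pair the covered bins had the lower median CpG count (17 against 18, and 17 against 18.5).

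**Figure D4:**
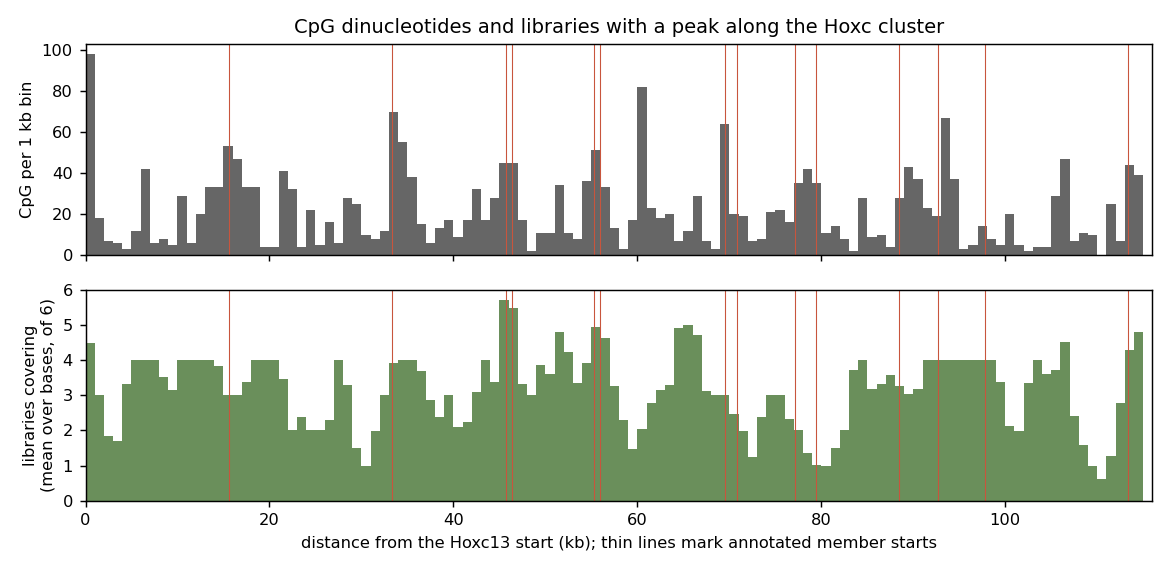
CpG count per 1 kb bin (top) and number of the 6 libraries covering, averaged over the bases of the bin (bottom), against distance from the Hoxc13 start in kb. Thin red lines mark annotated member starts. The bin that opens 45 kb past the Hoxc13 start and holds the Hoxc10 start is covered in 5.71 libraries, the highest, while the one at 60 kb, inside Hoxc9, holds 82 CpG and is covered in 2.05.

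Retinoic acid switches on Hox genes in embryos through receptors that bind direct repeats of a hexamer, so these were searched on both strands. No direct repeat of the receptor half-site with a spacer of 1, 2 or 5 bases (DR1, DR2, DR5) was found in the 115.75 kb, where 1.68% of all 1 kb windows upstream of coding starts hold one. No match says only that these letters are not there. The core of the motif of the insulator protein CTCF matched 6 times, in 6 of 115 bins (5.22%) beside 7.63% of upstream windows. A match is not a bound site. The match nearest to Hoxc6 (chr15:103000805-103000816, minus strand), 276 bases past its second start, lay inside a peak in 1 library.

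Non-coding genes of the cluster split the libraries. Hotair, a long non-coding RNA read antisense between Hoxc12 and Hoxc11 (chr15:102944062-102947730), was covered to 0%, 94.5% and 0% in WT against 100%, 16.1% and 0% in KO. Genotypes overlapped, and 1 library of each was nearly full. Mir196a-2 (chr15:102973350-102973434), between Hoxc10 and Hoxc9, lay inside a peak in WT replicates 1 and 2 and KO replicates 1 and 3. Mir615 (chr15:103014910-103015001), within Hoxc5, did so in the 4 libraries of 75 bp. Mature sequences of both (RefSeq, GRCm38) are printed since miR-196 is known to act on Hox transcripts, with the seed, bases 2 to 8, in capitals. The 4 seeds differ.
mmu-miR-196a-5p: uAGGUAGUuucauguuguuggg
mmu-miR-196a-2-3p: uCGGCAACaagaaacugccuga
mmu-miR-615-5p: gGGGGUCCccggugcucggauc
mmu-miR-615-3p: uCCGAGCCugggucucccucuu

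The mark did not stop at Hoxc4. In the 116.4 kb from the end of Hoxc4 to Smug1, the next coding gene, a base-excision repair enzyme, peaks covered 43.9%, 73.4% and 0% in WT against 44.9%, 62.9% and 0% in KO. On the other side, the 199 kb from Calcoco1 to Hoxc13 were covered to 12.2%, 23.2% and 0% in WT against 14.4%, 19.3% and 3.96% in KO. Of the last 30 kb before Hoxc13 the 75 bp libraries covered 48.8% to 51.4%, and of the rest 5.72% to 18.2%. In all 4 of them the covered share was higher past the head end than past the tail end over these unequal lengths (116.4 and 199 kb). In WT replicate 1 and KO replicate 1 the share of the last 30 kb before Hoxc13 (48.8% and 49.3%) exceeded that of the whole head-end side. Of the 5 nearest coding genes on either side, Smug1 had a promoter peak in 6 of 6 libraries and the other 9 genes had none in any. The peak at Smug1 in WT replicate 3 had a maximum of 6, above that at Hoxc10 in the same library.

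**Figure D5:**
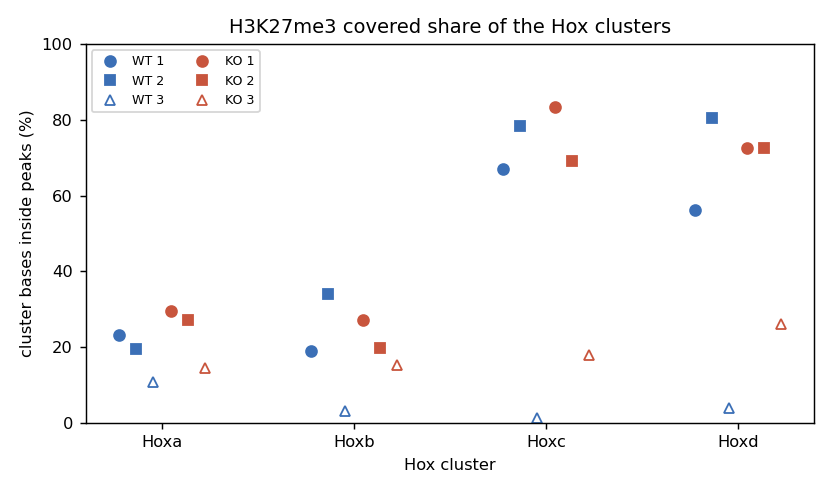
Percentage of each Hox cluster inside peaks (y axis) in each library, with filled symbols for 75 bp libraries, open triangles for replicate 3, WT in blue and KO in red. In the 75 bp libraries Hoxc and Hoxd lie between 56.1 and 83.5%, and Hoxa and Hoxb between 19.0 and 34.0%. In WT replicate 3 Hoxc is lowest of the 4 clusters.

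Among the Hox clusters, Hoxc and Hoxd had the highest covered shares in the 75 bp libraries. In the 75 bp libraries all 9 Hoxc and all 9 Hoxd promoters were called, against 4 of 11 Hoxa and 4 of 10 Hoxb promoters that were called in each of these libraries. The covered share of Hoxc exceeded that of Hoxa by 43.7, 58.8 and -9.41 points in WT and by 54.0, 42.1 and 3.43 points in KO. It was higher in 5 of 6 libraries, with a mean of 32.1 ± 28.2 points (SD, n = 6, exact sign-flip test p = 0.0938, adjusted over 3 clusters p = 0.141). Against Hoxb the mean was 33.1 ± 25.7 points, again higher in 5 of 6 (exact sign-flip test p = 0.0625, adjusted p = 0.141). Against Hoxd it was 0.92 ± 8.03 points, higher in 2 of 6 (exact sign-flip test p = 0.844). Without WT replicate 3 the differences from Hoxa and Hoxb grew to 40.4 and 40.1 points. WT replicate 3 reversed the order, with 10.7% of Hoxa covered against 1.26% of Hoxc. The KO minus WT difference of Hoxc, set against that of Hoxa, Hoxb and Hoxd, did not pass the test (differences of 2.11, 6.08 and -2.20 points, exact permutation tests, adjusted p = 1, 0.9 and 0.9).

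Genes that write and read the mark, and partners of HOX proteins, were read beside a background of 15.8% of coding genes called in any library. Of 22 Polycomb genes, 4 were called in any library and 18 never, among them Ezh2, Eed and Suz12 of PRC2. Among the others, Cbx8, which encodes a reader of the mark, was called in 6 of 6 libraries, Cbx2 in 3 and Bmi1 in 1. Of 9 HOX cofactor genes, 3 were called in any library, and 6, among them Meis1, were not. Pknox2 was called in 6, and Meis2 and Meis3 in 5 each. The other 30 Hox genes gave 20, 20 and 8 calls in WT and 22, 21 and 16 in KO. The median covered share of the 9 members was 81.7%, 100% and 0% in WT against 85.8%, 80.0% and 18.1% in KO. Coding genes among those nearest to it over the 6 libraries were Ankrd34b (Euclidean distance 12.0 points), Syndig1l (19.0), Kirrel2 (19.3) and Cyp26a1 (20.2).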

How the data were processed

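H3K27me3 CUT&Tag was performed on 6 LT-HSC libraries (3 WT, 3 KO; E14.5). The authors trimmed reads (Trim Galore 0.6.6), aligned them to GRCm38 (Bowtie2 2.4.4), removed multi-mapped reads and duplicates, and called peaks per library with SEACR 1.3 (stringent, without IgG, top 0.5%) on bedtools 2.30 coverage. The deposited signal columns are the total and the maximum fragment coverage of each peak and are not scaled to library size. The study lists uniquely mapped reads per library, fewest in replicate 3 of both genotypes. They are not part of the deposited peak files and did not enter any value here, and a stretch without a peak may hold the mark below the cut. Groups came from the labels. The study calls the replicates independent. One of its figure legends gives fewer experiments than the 3 libraries of each genotype, so some libraries may share an experiment. Several embryos of each genotype were used, but no source read here ties embryos to libraries, so p-values measure the spread between these libraries.

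Starts and genes were taken from GENCODE M21, sequence from the GRCm38 reference. Peaks were matched by 1 bp or more of overlap (Python 3.11.15), and signal was shared out by overlapped length. Single values were compared by exact permutation over libraries, promoter signal with limma 3.58.1 (R 4.3.3) with Benjamini-Hochberg adjustment at 0.05, checked on simulated data. Same-numbered WT and KO libraries deviated together over 581 genes (r = 0.27, 0.19 and 0.33), so replicate numbers were treated as pairs in an alternative fit. All 9 members were named, with the 5 nearest coding genes on either side, the called genes of fixed lists (at most 4 each), the 5 genes most alike and non-coding genes. Members, lists and tests were chosen with earlier results of these data known. The study's methods name replicate consensus peaks, which were not used here. Some items within these rules are not reported here.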

Additional observations from a re-analysis of the deposited data

How the results depend on the processing

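None of 128 alternatives of the 12 main results, and none of 100 of the 9 single promoters, passed a threshold. For the permutation and sign-flip tests this says nothing about stability. Except for sign flips over all 6 libraries, they could not pass 0.05 whatever the values, also with 1 library left out. In each set 22 turned the direction, and the cause was not tested. Leaving out 1 library, KO minus WT ran from -0.67 to 2.83 promoters called, from -15.8 to 27.5 points of covered share, from -0.28 to 0.93 (log2) in signal share and from -0.21 to -0.03 (log2) in depth. Hoxc minus Hoxd ran from -1.10 to 2.75 points, and the genotype differences against Hoxa, Hoxb and Hoxd from -18.1 to 17.0, -9.95 to 22.9 and -7.79 to 2.18 points. Single promoters turned at Hoxc8 (-0.011 to 0.47), Hoxc6 (-0.21 to 0.50) and Hoxc5 (-0.34 to 0.25, log2). Leaving out WT replicate 1 or 2 gave values only for Hoxc10 and Hoxc5, and leaving out KO replicate 1 or 2 gave none for Hoxc11 and Hoxc12. The same number of top peaks gave -0.67 promoters called, -0.15 (log2) in signal share, -2.66 points against Hoxd and -1.91 points in the genotype difference against Hoxa. The 75 bp libraries gave -0.014 (log2) in signal share and -3.25 points in the difference against Hoxa. Peaks above the library median gave -1.09 (log2) in signal share over 5 libraries, and the highest maximum gave 0.10 (log2) in depth.

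Of single promoters (log2), setting uncalled libraries to their smallest signal gave 1.12 at Hoxc13, -1.50 at Hoxc12, -1.43 at Hoxc11, 1.60 at Hoxc9 and 0.99 at Hoxc4, with the median of all genes shifted by 0.50. Mean coverage gave 0.0033 at Hoxc13, -0.038 at Hoxc12, -0.35 at Hoxc8 and -0.14 at Hoxc6. The highest maximum gave 0.076 at Hoxc13, 0.20 at Hoxc10, -0.52 at Hoxc8, -0.35 at Hoxc6 and 0.24 at Hoxc5. Promoters of 1 kb either side gave 0.12 at Hoxc13 and -0.35 at Hoxc11, and centring on total signal gave 0.0043 at Hoxc9. The limma count stayed at 0 genes in 15 alternatives, with 10 to 96 at an unadjusted p under 0.05. The replicate block over 3 pairs changed no limma call, and its sign-flip tests could give none. For the 3 starts and for depth (-0.14, log2) the exact sign-flip p was 0.25, the smallest it allows. The replicate block was not run for Hoxc minus Hoxa, Hoxb or Hoxd.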
